A study of Gallus gallus with 14 samples.

Results

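The transcription factors of amacrine cells were followed in the retinas of White Leghorn chicks, either wearing a -10 D lens or serving as controls. The set comprised 10 genes of the 18631 in the deposited table, listed by symbol, with earlier results of these data known: TFAP2A, TFAP2B, PAX6, MEIS1, MEIS2, LHX9, NEUROD6, EBF1, EBF2 and EBF3. All chicks were wild type. Chicks received their lens when 3 days old, and the retina was taken after 6 days of wear. Such a lens shifts focus to behind the retina, and a growing eye responds by elongating. Total RNA was sequenced from 7 control retinas (57, 58, 59, 62, 63, 64 and 65) and 7 lens retinas (46, 47, 48, 51, 53, 54 and 55), each as its own library. No source used here says how control eyes were handled or that libraries stem from separate animals. The p-values therefore set a group difference against the spread between these libraries, and could be too small if libraries share animals.

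Amacrine cells are the inhibitory interneurons of the inner retina. They receive input from bipolar cells and signal to ganglion cells, to bipolar terminals and to each other, mostly with GABA or glycine. Their many classes are specified and kept apart by combinations of transcription factors. TFAP2 proteins and PAX6 are broad amacrine factors, and MEIS2, LHX9, NEUROD6 and EBF proteins mark or specify narrower classes in mouse. None of the 10 is exclusive to amacrine cells. PAX6 is also made by ganglion cells, horizontal cells and Müller glia, TFAP2 proteins by horizontal cells, and EBF proteins by ganglion and bipolar cells. In whole retina, fewer cells of a type and less RNA per cell cannot be told apart.

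Values were in CPM, reads scaled to a common library total. Depth read from the step between low values was 32.3 to 42.6 M per library, averaging 35.5 ± 2.32 M (SD) over control and 39.0 ± 3.27 M (SD) over lens libraries. Of that total, the genes of the table made up 33.4 ± 0.454% (SD) in control and 32.6 ± 0.660% (SD) in lens libraries. Over the 11132 tested genes, the log2 fold change had a median of -0.04. Transcripts of the W chromosome, which only female birds carry, summed to 616 to 721 CPM in 11 libraries and to 2.20 to 4.56 CPM in control 65, lens 48 and lens 55. Some retinal markers were high: the bipolar channel TRPM1 measured 178 CPM, the Müller glia enzyme GLUL 597 CPM and the GABA-synthesizing enzyme GAD1 326 CPM, each as the control mean. Other listed markers were under 1 CPM as control means. Among them were SOX9 (0.650 CPM) and HES1 (0.182 CPM) of Müller glia and POU4F2 (0.0959 CPM) and POU4F3 (0.184 CPM) of ganglion cells. Of genes that mark cells outside the neural retina, the endothelial cadherin CDH5, the fibroblast collagen COL1A1 and the pigment enzyme TYR were each under 0.1 CPM on average, whereas the endothelial receptor KDR measured 38.4 CPM, PECAM1 19.4 CPM, MITF 19.0 CPM, OCA2 12.2 CPM and RPE65 3.61 CPM as control means.

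Transcripts of 2 amacrine factors, TFAP2B and MEIS2, fell in lens retinas, by 13.5% and 13.6% of the control mean. EBF3 and TFAP2A lay lower by similar shares without passing the test. PAX6, MEIS1, LHX9 and EBF1 differed by smaller shares, and NEUROD6 lay slightly higher. In limma, with Benjamini-Hochberg adjustment over all tested genes and a threshold of 0.05, 2 of the 9 tested genes were lower, 0 were higher and 7 did not pass. Of all 11132 tested genes, 1.84% were called lower and 0.916% higher. EBF2 reached the lower limit of 1 CPM only in control 63 (1.02 CPM), not in the 7 libraries required, and was tested alone. At an unadjusted p under 0.05 there were 4 of the 9 genes, and 16.1% of all tested genes. Lens means on the log2 scale lay under the control means in 8 of the 9 genes, and in 7241 of all tested genes. Over the 9 genes, the log2 fold change had a median of -0.09. The 2 calls depended on the scaling. With trimmed-mean (TMM) factors, median-of-ratios factors, a common sum over the listed genes or quantile normalization, 0 members passed. Of all 11132 tested genes, 105 to 129 were then called lower and 147 to 157 higher, beside 205 and 102 as deposited.

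**Figure D1:**
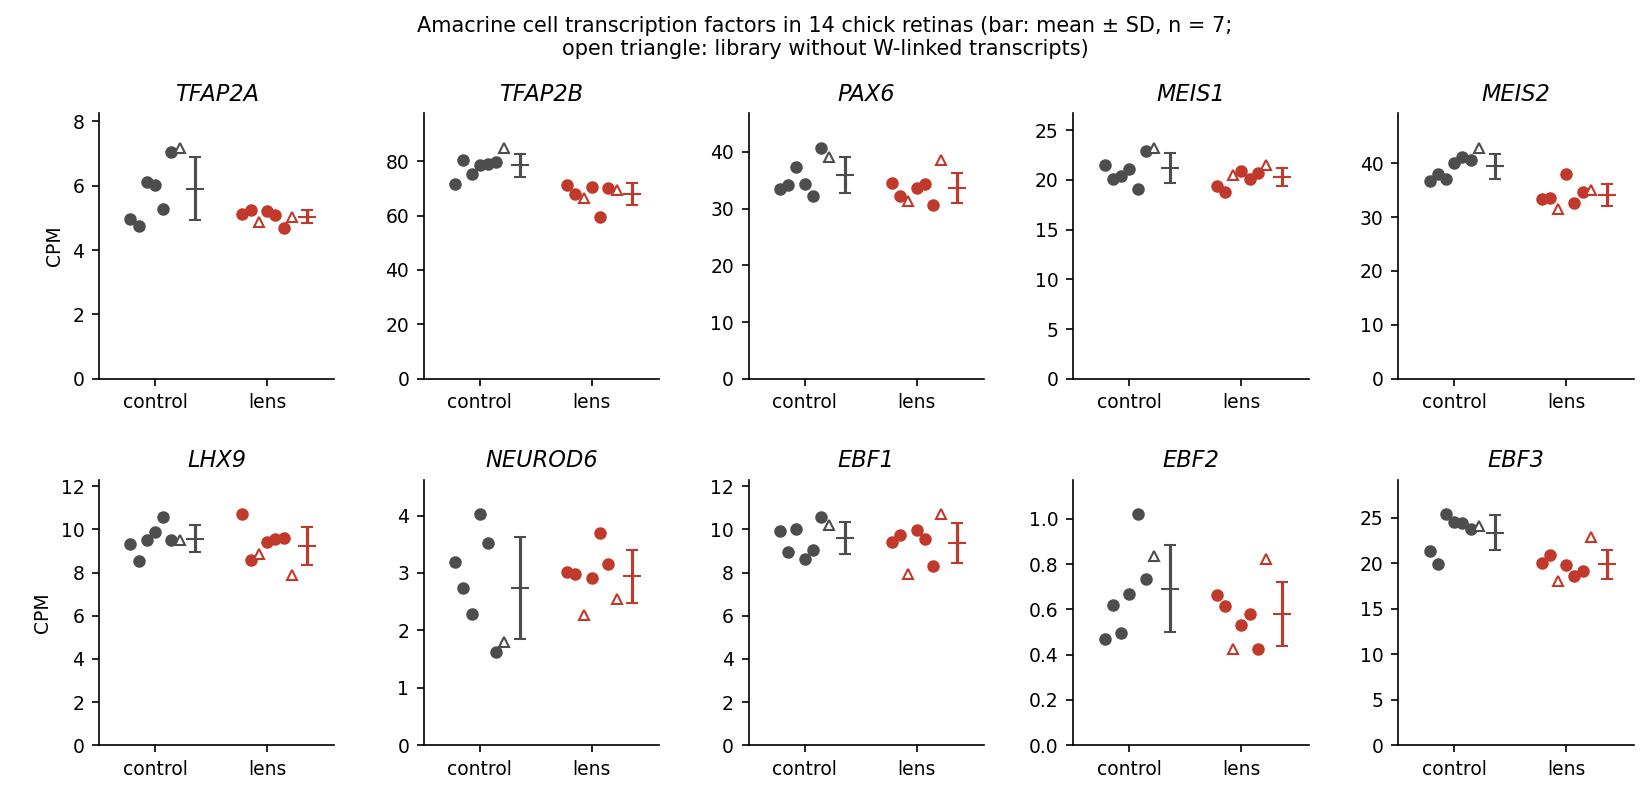
Level of each of the 10 genes in CPM, 1 point per library, in 7 control and 7 lens retinas, with the mean and SD beside the points and open triangles for the 3 libraries without W-linked transcripts. For TFAP2B every lens library lay below every control library (highest lens value 71.2 CPM, lowest control value 71.7 CPM), and for the other genes the groups overlapped.

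The TFAP2 family binds GC-rich palindromes as dimers, and in mouse TFAP2A and TFAP2B act in overlapping fashion in amacrine and horizontal cell development. TFAP2B (chromosome 3, 108213882 to 108246724, minus strand, build GRCg6a) ranged from 71.7 CPM through a median of 78.8 CPM to 84.8 CPM in control libraries, and from 59.3 through 69.3 to 71.2 CPM in lens libraries. The groups did not overlap, although the gap between them, from lens 46 to control 57, was small. Such a full separation with lens libraries below was seen in 0.970% of all tested genes. The mean went from 78.4 ± 4.13 CPM over the 7 controls to 67.8 ± 4.11 CPM over the 7 lens retinas (SD), a change of -13.5%. Its log2 fold change on log2(CPM + 1) was -0.21 ± 0.0458 (SE, limma adjusted p = 0.0178). With the 4 other scalings the value was -0.17 to -0.16 and the adjusted p = 0.0782 to 0.102. Without the 3 libraries that lack W-linked transcripts, the log2 fold change was -0.19 (adjusted p = 0.0763), and the means were 77.3 CPM (control) and 67.8 CPM (lens). The call held in all 14 fits that left out 1 library. TFAP2B overlaps LOC107053179 and LOC107053180 on the other strand, which averaged 0.396 and 0.116 CPM in control libraries.

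TFAP2A (chromosome 2, 63283222 to 63300912, plus strand), the paralogue, ranged from 4.75 through 6.01 to 7.17 CPM in control and from 4.70 through 5.10 to 5.26 CPM in lens libraries. All 7 lens values lay below the control median, but 2 controls, 57 and 58, lay within the lens range. The mean was 5.91 ± 0.968 CPM (SD) over the 7 control retinas and 5.04 ± 0.197 CPM (SD) over the 7 lens retinas, with a log2 fold change of -0.18 ± 0.0812 (SE, limma adjusted p = 0.272). The spread was wider among controls, where control 64 at 7.06 CPM and control 65 at 7.17 CPM stood above the rest. That difference in spread was not tested. TFAP2A shares a short stretch with LOC101749691 on the other strand, with means of 2.66 CPM (control) and 2.93 CPM (lens). No source used here states how strand was treated in counting, so reads in the shared stretch cannot be assigned. The other family members on the list of paralogues, TFAP2C, TFAP2D and TFAP2E, did not pass either (limma adjusted p = 0.634, 0.626 and 0.816). TFAP2C went from 19.8 ± 3.28 CPM (SD) over the 7 control retinas to 18.2 ± 1.67 CPM (SD) over the 7 lens retinas.

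The MEIS proteins are homeodomain factors of the TALE class that bind DNA together with partners of the same class. MEIS2 marks a group of GABAergic amacrine cells in mouse, and MEIS1 acts with it in retinal progenitors. MEIS2 (chromosome 5, 31436553 to 31606656, plus strand) ranged from 36.6 through 40.1 to 42.8 CPM in control and from 31.5 through 33.6 to 37.9 CPM in lens libraries. In 6 of 7 lens libraries it lay below every control, and the exception was lens 51 at 37.9 CPM. The mean fell from 39.4 ± 2.30 CPM over the 7 controls to 34.1 ± 2.06 CPM over the 7 lens retinas (SD), a change of -13.6%, with a log2 fold change of -0.21 ± 0.0475 (SE, limma adjusted p = 0.0237). With the 4 other scalings it was -0.17 to -0.16 (adjusted p = 0.0821 to 0.0930). The call was also lost without control 65 (adjusted p = 0.0524), without lens 48 (0.0571), without lens 53 (0.0520) and without the 3 libraries that lack W-linked transcripts (log2 fold change -0.17, adjusted p = 0.107).

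MEIS1 (chromosome 3, 11083911 to 11177323, plus strand) ranged from 19.1 through 21.1 to 23.2 CPM in control and from 18.8 through 20.5 to 21.5 CPM in lens libraries. The groups overlapped over most of their range. Its mean was 21.2 ± 1.49 CPM (SD) over the 7 control retinas and 20.3 ± 0.918 CPM (SD) over the 7 lens retinas, with a log2 fold change of -0.06 ± 0.0497 (SE, limma adjusted p = 0.608) and a 95% interval of -0.16 to 0.05. Its SD within groups was 0.0814 on the log2 scale, where 3622 tested genes within 2-fold of its level had a median of 0.120. Of the TALE cofactors, 5 of 7 measured genes were tested and 0 passed, with a median log2 fold change of -0.13 beside -0.04 for all tested genes. PKNOX1 measured 36.1 ± 2.34 CPM (SD) over the 7 control retinas and 32.9 ± 3.26 CPM (SD) over the 7 lens retinas, with a limma adjusted p = 0.301.

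PAX6, the paired-box and homeodomain factor that stays on in amacrine and ganglion cells after development, lies on chromosome 5 (5444524 to 5461417, minus strand). It ranged from 32.2 through 34.4 to 40.7 CPM in control and from 30.6 through 33.7 to 38.6 CPM in lens libraries. The highest values were those of control 64, control 65 and lens 55, and the lens range covered most of the control range. Its mean was 35.9 ± 3.21 CPM (SD) over the 7 control retinas and 33.6 ± 2.66 CPM (SD) over the 7 lens retinas. The log2 fold change was -0.09 ± 0.0601 (SE, limma adjusted p = 0.488), with a 95% interval of -0.22 to 0.03. The interval includes a fall as large as that of TFAP2B or MEIS2.

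**Figure D2:**
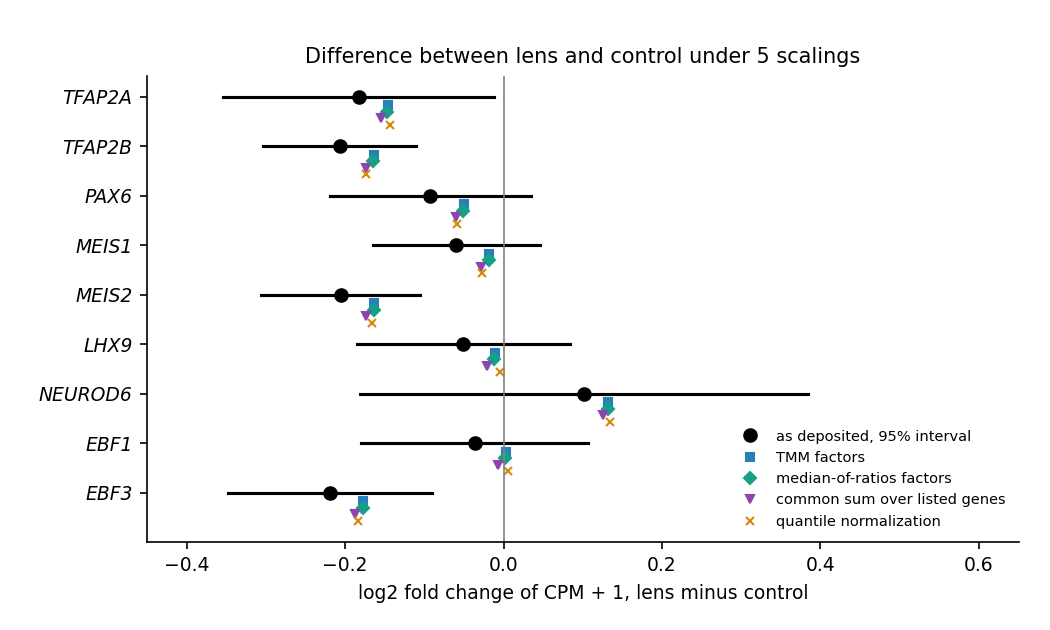
Log2 fold change of each tested gene, lens minus control, on log2(CPM + 1), with the values as deposited (black point, line for the 95% interval) and with 4 other scalings (coloured symbols). TFAP2B, MEIS2 and EBF3 lay between -0.22 and -0.16 under all 5 scalings, while EBF1 crossed 0.

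The EBF genes encode early B-cell factors, helix-loop-helix proteins that act in mouse in amacrine classes, horizontal cells and OFF bipolar cells. EBF3 (chromosome 6, 35109889 to 35223911, minus strand) ranged from 19.9 through 24.1 to 25.4 CPM in control and from 18.1 through 19.8 to 22.9 CPM in lens libraries. All 7 lens values lay below the control median and 4 of them below every control, whereas control 57 and control 58 lay within the lens range. The mean was 23.4 ± 1.96 CPM (SD) over the 7 control retinas and 19.9 ± 1.61 CPM (SD) over the 7 lens retinas, a difference of -14.7%. Its log2 fold change, -0.22 ± 0.0612 (SE), was the largest of the 9 in size, with an adjusted p = 0.0671 in limma. It passed with a filter of 10 CPM (adjusted p = 0.0421), with array weights (0.0469), without control 58 (0.0257) and without lens 55 (0.0236), and it did not pass with any of the 4 other scalings (0.141 to 0.171). EBF3 overlaps 4 listed genes, of which LOC107053752 on the other strand averaged 1.51 CPM (control) and 1.89 CPM (lens) and LOC101749423, also on the other strand, 2.97 and 3.04 CPM.

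EBF1 (chromosome 13, 11389367 to 11652876, plus strand) ranged from 8.61 through 9.91 to 10.6 CPM in control and from 7.94 through 9.55 to 10.7 CPM in lens libraries. The lens values spanned the whole control range, with lens 48 and lens 54 below it and lens 55 above it. Its log2 fold change was -0.04 ± 0.0679 (SE, limma adjusted p = 0.849, 95% interval -0.18 to 0.11), and it was just above 0 with TMM factors (0.0027), median-of-ratios factors (0.0019) and quantile normalization (0.0052). EBF2 (chromosome 22, 752073 to 875596, plus strand) was near the limit of detection, with an estimated 16 to 36 reads per library. It ranged from 0.468 through 0.670 to 1.02 CPM in control and from 0.423 through 0.580 to 0.824 CPM in lens libraries. The groups overlapped, and the difference in mean log2(CPM + 1) was -0.10 (exact two-sided permutation p = 0.237, unadjusted).

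LHX9, a LIM homeodomain factor of an amacrine subset in mouse, lies on chromosome 8 (2665688 to 2685266, minus strand). It ranged from 8.55 through 9.53 to 10.6 CPM in control and from 7.88 through 9.44 to 10.7 CPM in lens libraries. The mean was 9.57 ± 0.619 CPM (SD) over the 7 control retinas and 9.22 ± 0.885 CPM (SD) over the 7 lens retinas, with a log2 fold change of -0.05 ± 0.0638 (SE, limma adjusted p = 0.761, 95% interval -0.18 to 0.08). Both extremes were lens libraries, 55 at the low end and 46 at the high end.

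NEUROD6, a basic helix-loop-helix factor of amacrine cells that use neither GABA nor glycine in mouse, lies on chromosome 2 (48553366 to 48578626, plus strand). It ranged from 1.63 through 2.74 to 4.02 CPM in control and from 2.26 through 2.99 to 3.70 CPM in lens libraries. All lens values lay inside the control range. The mean was 2.74 ± 0.894 CPM (SD) over the 7 control retinas and 2.94 ± 0.456 CPM (SD) over the 7 lens retinas, with a log2 fold change of 0.10 ± 0.134 (SE, limma adjusted p = 0.776) and a 95% interval of -0.18 to 0.38. Control 64 and control 65, where TFAP2A and PAX6 were high, held its lowest values, 1.63 and 1.79 CPM.

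The genes differed in how much they varied among retinas of the same group. NEUROD6 had a coefficient of variation (CV) of 25.5% within groups, 2.62 times the 9.76% that counting of its 58 to 156 estimated reads would give. Its SD on the log2 scale, 0.276, exceeded that of 87.7% of the 3196 tested genes within 2-fold of its level. EBF2 had a similar CV, 26.1%, but counting alone would give 20.6%. PAX6, with 1139 to 1593 reads, had a CV of 8.45% where counting gives 2.79%, and TFAP2B a CV of 5.68% where counting gives 1.92%. Among genes within 2-fold of their level, the SD on the log2 scale exceeded that of 59.7% for PAX6 (0.116, median 0.107) and of 36.1% for TFAP2B (0.0830, median 0.0951). For MEIS1, MEIS2, LHX9, EBF1, TFAP2A and EBF3 the CV was 5.90% to 11.9%, which was 1.53 to 2.33 times the counting value. Each CV pools the 2 groups. For TFAP2A, with a counting CV of 7.03%, the excess came from the control libraries (SD 0.968 CPM on a mean of 5.91 CPM). Its lens spread (SD 0.197 CPM on a mean of 5.04 CPM) was less than counting alone would give. The difference of 13.5% in TFAP2B compares with its CV of 5.68%, and that of 13.6% in MEIS2 with 5.95%.

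**Figure D3:**
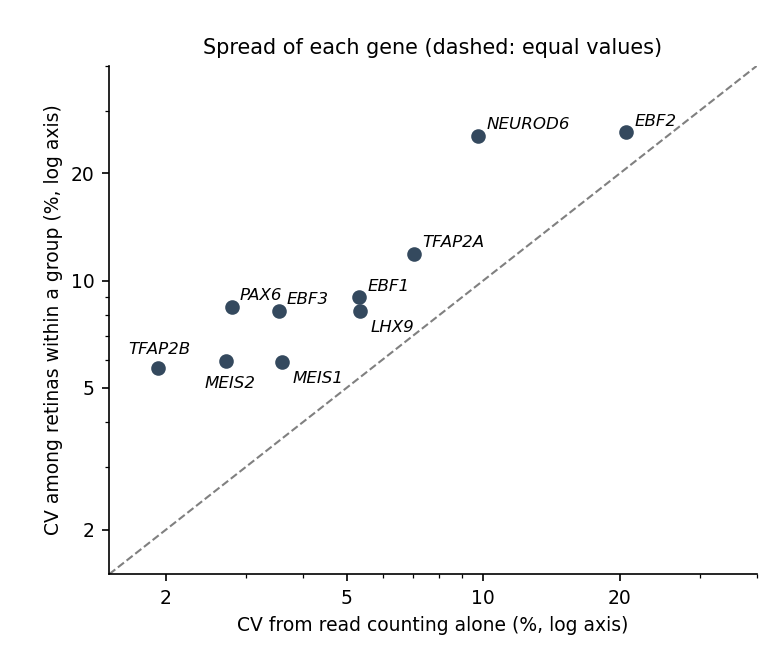
Coefficient of variation of each gene among retinas within a group (vertical, %) against the value that read counting alone would give (horizontal, %), both on log axes. All 10 genes lay above the dashed line of equal values, EBF2 closest to it (1.26 times) and PAX6 (3.03 times) and TFAP2B (2.95 times) farthest. The line holds counting error only and no difference between retinas. Each CV pools the 2 groups, and the spread of TFAP2A in lens libraries alone was below counting error.

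For 5 pairs of members the ratio within each library was compared. A scaling factor cancels in such a ratio except for the 1 CPM added to each value. The test was an exact two-sided permutation of the 3432 ways to split the libraries, adjusted over the 5 ratios. MEIS2 fell relative to MEIS1. The log2 ratio of CPM + 1 was 0.74 to 1.06 with a median of 0.85 in control and 0.60 to 0.83 with a median of 0.72 in lens libraries, and all 7 lens values lay below the control median. The difference in means was -0.15 (exact permutation p = 0.00932, adjusted p = 0.0335). EBF3 fell relative to EBF1, from 1.04 to 1.41 with a median of 1.17 in control to 0.89 to 1.12 with a median of 1.03 in lens libraries. In 5 of 7 lens libraries this ratio lay below every control, and the difference in means was -0.18 (exact permutation p = 0.0134, adjusted p = 0.0335). With the 4 other scalings, run after the values were seen, both calls held (exact permutation adjusted p = 0.0350 to 0.0364). For all but quantile normalization this was nearly fixed in advance, since the factor cancels. A ratio shows that the genes of a pair differed unequally and not which one changed.

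The ratio of TFAP2B to TFAP2A, with a log2 mean of 3.53 ± 0.176 (SD) over 7 control and 3.51 ± 0.105 (SD) over 7 lens libraries, differed by -0.02 (exact permutation adjusted p = 0.763), a value that was 0.0012 with a pseudocount of 0.1 CPM and -0.08 with 5 CPM. The ratio of TFAP2B to PAX6 differed by -0.11 and that of MEIS2 to PAX6 by -0.11 (exact permutation adjusted p = 0.162 each). TFAP2B and MEIS2 were therefore not shown to differ unequally from PAX6. Both calls on ratios were lost without the 3 libraries that lack W-linked transcripts (-0.11 for MEIS2 to MEIS1 and -0.21 for EBF3 to EBF1, exact permutation adjusted p = 0.162 each). The first was lost in 6 of 14 tests that left out 1 library (control 59, 62 or 63, lens 46, 53 or 55), and the second in 8 (the same libraries and lens 47 or 51), with exact permutation adjusted p-values up to 0.0772.

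**Figure D4:**
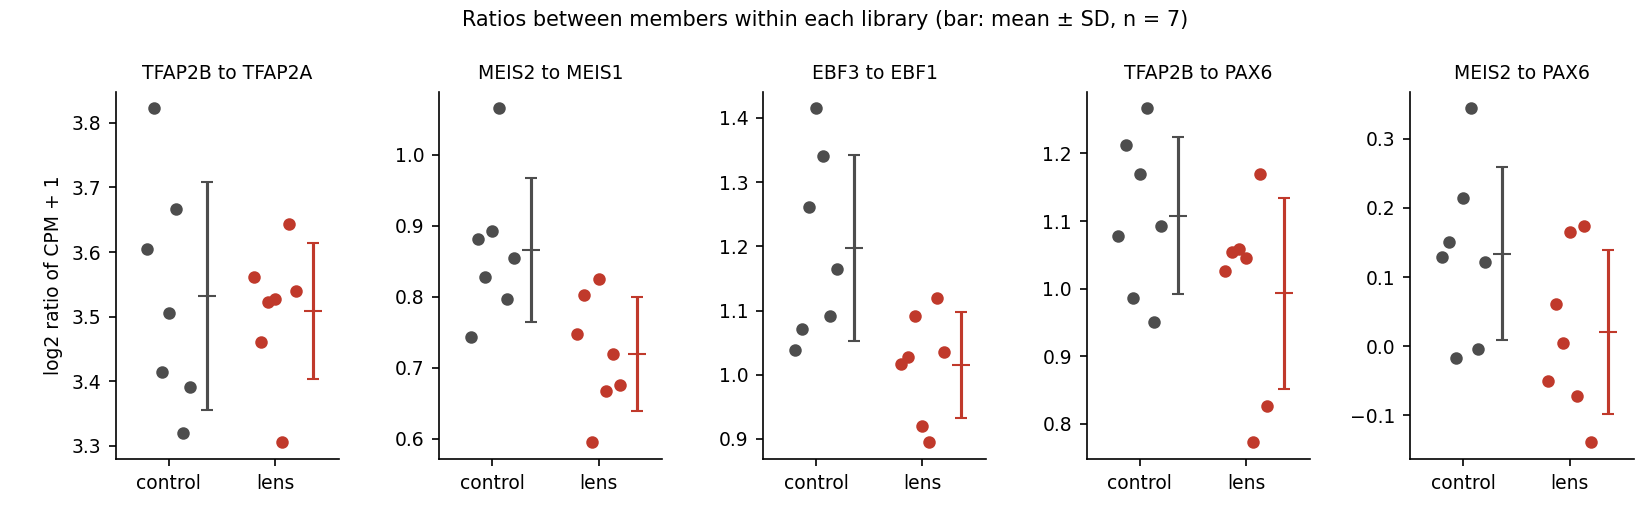
Log2 ratio of CPM + 1 between pairs of the genes, 1 point per library, with mean and SD (n = 7) beside the points. For MEIS2 to MEIS1 all 7 lens libraries lay at or under 0.83, below the control median of 0.85, and for EBF3 to EBF1 5 of 7 lens libraries lay below every control. The vertical axes differ between panels and do not start at 0.

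Pairs of the genes were also compared among retinas of one group. After the group mean was subtracted, TFAP2B and MEIS2 had a Pearson r of 0.66 over the 14 libraries (permutation p = 0.0179, adjusted p = 0.108 over 6 pairs) and a Spearman rho of 0.68 (permutation p = 0.0112, adjusted p = 0.0674). Without the 2 libraries farthest from the median of TFAP2B, control 57 and lens 53, r was 0.67. The paralogue pairs had a lower r, 0.30 for TFAP2A with TFAP2B, 0.37 for MEIS1 with MEIS2 and 0.49 for EBF1 with EBF3 (permutation adjusted p = 0.400, 0.400 and 0.252). None of the 6 pairs passed, and their points share library, depth and scaling total. The deviations of control 64 and control 65 were above the group mean for 8 of the 10 genes, all but LHX9 and NEUROD6. In control 64 some were small, 0.0228 for TFAP2B and 0.0289 for EBF3. Control 64 also had the highest share of listed genes, 34.2%, and the largest TMM factor, 1.037, of the 14 libraries. The same share over all tested genes was not computed, and the part of scaling in these deviations was not tested.

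**Figure D5:**
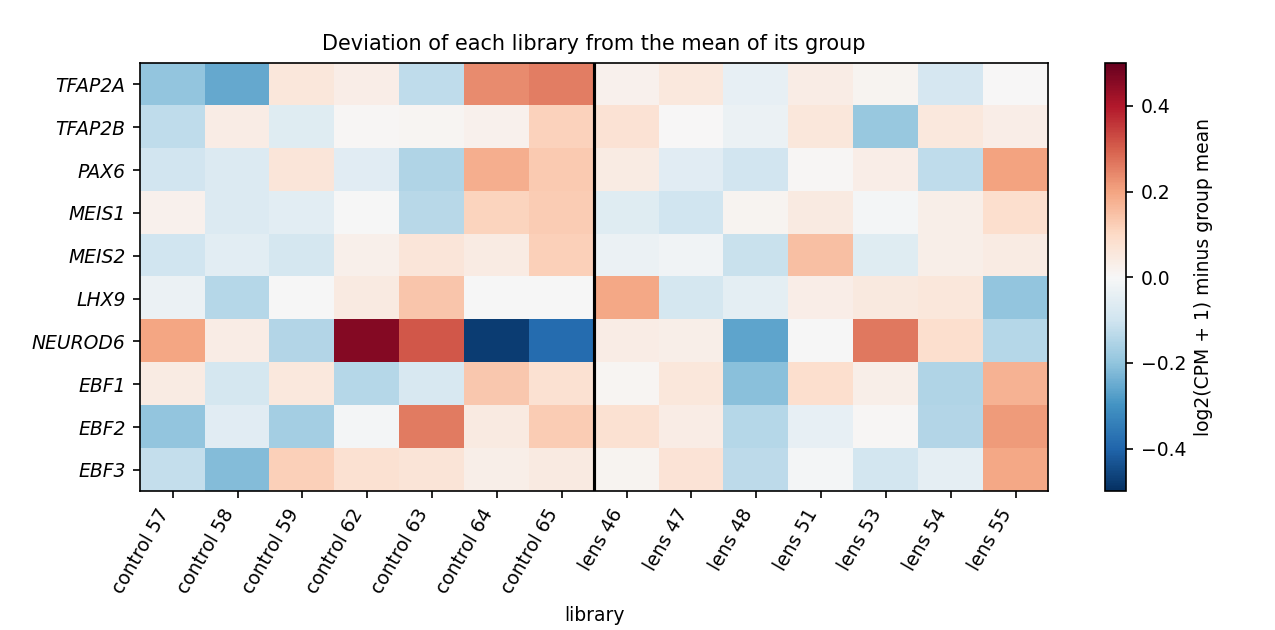
Deviation of each library (columns) from the mean of its own group in log2(CPM + 1), for each gene (rows), with red above and blue below the group mean and a line between control and lens libraries. Control 64 and control 65 were high for TFAP2A and PAX6 and low for NEUROD6, at -0.47 and -0.39, and lens 55 was high for PAX6, EBF1, EBF2 and EBF3.

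Other genes of amacrine cells were taken from 3 lists, of factors, transmitter genes and neuropeptides, in which 1 of 15, 2 of 16 and 1 of 6 tested genes were lower and 0 were higher, beside 1.84% lower and 0.916% higher over all tested genes. Of 22 further amacrine transcription factors, 20 matched a symbol in the table and 15 were tested. NEUROD4, a proneural factor of amacrine and bipolar cells, fell from 2.75 ± 0.540 CPM over the 7 controls to 1.76 ± 0.262 CPM over the 7 lens retinas (SD), with a log2 fold change of -0.44 ± 0.0981 (SE, limma adjusted p = 0.0202). With the 4 other scalings the value was -0.41 (adjusted p = 0.0308 to 0.0341), and without the 3 libraries that lack W-linked transcripts it did not pass (adjusted p = 0.0593). The other 14 did not pass, and the median of the 15 was -0.08. Among them, ISL1, a factor of starburst amacrine, bipolar and ganglion cells, measured 12.8 ± 2.72 CPM (SD) over the 7 control retinas and 12.9 ± 2.97 CPM (SD) over the 7 lens retinas, and NEUROD1 2.06 ± 1.04 CPM (SD) and 2.10 ± 0.674 CPM (SD, 7 retinas each). The TFAP2 cofactors had 0 of 3 tested genes past the threshold.

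Of 16 tested amacrine transmitter genes, 2 fell, 0 rose and 14 did not pass, with a median log2 fold change of -0.11. The 2 were SLC32A1, the vesicular transporter of GABA and glycine, and SLC6A9, a glycine transporter. SLC32A1 went from 14.8 ± 2.11 CPM over the 7 controls to 11.3 ± 0.835 CPM over the 7 lens retinas (SD), and SLC6A9 from 20.6 ± 2.86 CPM over the 7 controls to 15.6 ± 2.73 CPM over the 7 lens retinas (SD). With the 4 other scalings, SLC32A1 passed under 2 (adjusted p = 0.0480 to 0.0532) and SLC6A9 under 0 (adjusted p = 0.0839 to 0.0981). Neither passed without the 3 libraries that lack W-linked transcripts (adjusted p = 0.0870 and 0.0727). GAD1 measured 326 ± 17.7 CPM (SD) over the 7 control retinas and 302 ± 17.9 CPM (SD) over the 7 lens retinas (limma adjusted p = 0.222). Of 6 tested amacrine neuropeptides, GCG, the preproglucagon gene, fell (limma adjusted p = 0.0482) and 5 did not pass, with a median of -0.08. GCG passed with none of the 4 other scalings (adjusted p = 0.109 to 0.139), nor without the 3 libraries that lack W-linked transcripts (adjusted p = 0.197). When 1 library was left out, the SLC6A9 call was lost in 10 of 14 fits, all but those without control 57, lens 46, lens 51 or lens 55, and the GCG call in 12, all but those without lens 47 or lens 51.

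Marker lists of other cell types, among them those said above to make some of these factors, gave the following values. Ganglion cell markers summed to 253 to 326 CPM in control and 218 to 280 CPM in lens libraries, and 1 of 10 tested markers, the neurofilament NEFM, fell, with a median log2 fold change of -0.15. NEFL (102 CPM) and SLC17A6 (58.9 CPM) made up most of their control mean of 277 CPM. Horizontal cell markers summed to 167 to 203 CPM and 170 to 194 CPM, with 0 of 5 called and a median of -0.00. PROX1, which is also on the list of amacrine factors, made up most of that sum, with a control mean of 116 CPM. On the log2 scale, lens means were lower for 3 of the 5, LHX1, ONECUT1 and, barely, ONECUT2, and higher for PROX1 and GNG13. LHX1, a horizontal cell factor, measured 2.43 ± 0.450 CPM (SD) over the 7 control retinas and 1.74 ± 0.233 CPM (SD) over the 7 lens retinas (limma adjusted p = 0.0656). ONECUT1 measured 2.32 ± 0.316 CPM (SD) and 1.75 ± 0.430 CPM (SD, 7 retinas each, limma adjusted p = 0.155). Bipolar cell markers summed to 410 to 455 CPM and 385 to 433 CPM, with 0 of 7 called and a median of -0.09. TRPM1 (178 CPM) and PRKCA (124 CPM) made up most of their control mean of 433 CPM. Müller glia markers summed to 953 to 1128 CPM and 900 to 1202 CPM, with 0 of 6 called and a median of -0.08. GLUL (597 CPM) and SLC1A3 (280 CPM) made up most of their control mean of 1048 CPM. Photoreceptor markers summed to 1624 to 2089 CPM and 1474 to 2119 CPM, with a median of -0.10. PDE6H (692 CPM), ARR3 (270 CPM) and PDE6C (244 CPM) made up most of their control mean of 1884 CPM. Among 10 tested, the cone opsin OPN1LW was higher and PDE6B, PDE6C and ARR3 were lower. NEFM and these 4 photoreceptor genes passed with all 4 other scalings, and OPN1LW did not pass with a robust prior (limma adjusted p = 0.0572). Marker lists of cells outside the neural retina gave overlapping sums in the groups. Pigment epithelium markers summed to 33.3 to 38.7 CPM in control and 31.5 to 39.9 CPM in lens libraries. Vascular and connective tissue markers summed to 49.2 to 71.2 CPM and 47.6 to 67.5 CPM, and blood and immune markers to 5.34 to 8.46 CPM and 6.60 to 9.53 CPM. Of these lists, 3 of 10, 2 of 10 and 3 of 7 measured genes were tested, with 0 called. Their median log2 fold changes were -0.11, -0.09 and -0.00. As control means, MITF (19.0 CPM) and OCA2 (12.2 CPM) made up most of the 36.8 CPM of the first sum. KDR (38.4 CPM) and PECAM1 (19.4 CPM) made up most of the 59.6 CPM of the second. The sums thus say little about the content of such cells, which was not tested. Oligodendrocyte markers summed to 129 to 245 CPM and 123 to 223 CPM, with 0 of 3 called and a median of -0.03. MBP (141 CPM) made up most of their control mean of 163 CPM. Beside these lists, the median was -0.09 over the 9 tested members and -0.04 over all tested genes. The part of these other cell types in the levels of TFAP2B, MEIS2 and EBF3 was not tested.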

How the data were processed

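Per the labels' protocols, libraries were stranded and made from column-purified RNA depleted of ribosomal RNA. STAR, Partek and build GRCg6a are named, with no version, in the submitters' processing notes. No source used here gives the counting method or its strand setting. The authors deposited 1 table in CPM with 0.0001 added to each value, which was subtracted. Depth was read from the step between low values, of which 93.0% to 93.9% were whole reads within 0.02 of a read. The rest were fractions, so no count model was used. Library pairs differed by at least 6.37 in chi-square per gene, where counting alone gives about 1, so all 14 were kept.

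Groups and numbers came from the sample titles. A gene was tested if 7 of 14 libraries reached 1 CPM. The test was limma (3.58.1, in R 4.3.3) on log2(CPM + 1), with the prior variance following the mean level, and p-values were adjusted over all 11132 genes. Fold changes on this scale understate those of low genes. Correlations used group-centred values and 100000 permutations within groups. The counting CV was the inverse square root of the expected reads. The limma fit, and no other step, was tested on simulated data. Plots used matplotlib 3.10.9 and Python 3.11.15.

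The members, lists and alternatives were chosen with earlier results of these data known. Genes named were the 10 members, genes that overlap them, listed genes past the threshold, NEUROD1, ISL1, GAD1 and SLC32A1, and the 3 genes most correlated with each tested member. Other listed genes, among them TFAP2C, PKNOX1, LHX1 and the cell markers, were named after their values were seen. Some genes that this rule covers are not reported here. Chromosome names were matched through the RefSeq table of assembly GRCg7b, and coordinates are those deposited. A stop may be off by 1 base, since the table leaves its convention open.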

Additional observations from a re-analysis of the deposited data

Results flagged for a closer look

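TFAP2B in lens 53 stood apart from the other lens libraries at 59.3 CPM, where the next lowest, lens 48, was 66.4 CPM and the highest 71.2 CPM. The gap took 0.591 of the range of the 7 lens libraries, above the 95% Dixon limit for 7 values. It was the only flag among the 10 genes and 5 ratios in 2 groups of 7, and chance flags about 1 in 20 groups. Without lens 53 the TFAP2B call held (log2 fold change -0.18, limma adjusted p = 0.0288, within 0.0122 to 0.0403 over the fits that left out 1 library). MEIS2 was also low there, at 32.6 CPM, but within the other lens values.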

How the results depend on the processing

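No paired analysis was possible because the groups share no replicate number. Of the 9 tested members, 2 were called lower with the values as deposited. This count was 0 with TMM factors, median-of-ratios factors, a common sum over listed genes and quantile normalization, and 0 without the 3 libraries that lack W-linked transcripts. It was 3 with a filter of 10 CPM, which left 5 members tested, and 3 with array weights, and 1 to 3 when 1 library was left out. A covariate for the title's letter L or R, whose meaning no label gives, or for W-linked level kept TFAP2B and MEIS2 called. The scalings moved the median of all tested genes from -0.0378 to between -0.0089 and 0.0001 and the share of all calls that were higher from 33.2% to between 53.3% and 59.5%, and the members moved by a like amount. EBF1 changed sign with TMM factors (0.0027), median-of-ratios factors (0.0019) and quantile normalization (0.0052). With a pseudocount of 0.1 CPM, the TFAP2B to TFAP2A ratio difference was 0.0012. Without the 3 libraries that lack W-linked transcripts, ratio differences were -0.1147 for MEIS2 to MEIS1 and -0.2067 for EBF3 to EBF1, both past the threshold before and not after, and r was -0.05 for TFAP2B with PAX6 and -0.01 for PAX6 with MEIS2. When 1 library was left out, ratio differences were -0.17 to -0.11 for MEIS2 to MEIS1, -0.21 to -0.15 for EBF3 to EBF1 and -0.0594 to 0.0242 for TFAP2B to TFAP2A. The r of TFAP2B with MEIS2 passed with a common sum over listed genes (0.72, permutation adjusted p = 0.0452) and was 0.59 to 0.73 when 1 library was left out (passing without lens 53). With no filter, EBF2 had a log2 fold change of -0.10 (limma adjusted p = 0.681). Apart from scaling, whose effect follows from its construction, the cause of these changes was not tested.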

Other observations

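Each tested gene was set beside the tested genes whose group-centred levels were most like its own over the 14 libraries, as a description with no test, since the best of 11132 genes is high by selection and all share the same libraries. PAX6 was most like the spindle checkpoint gene BUB3 (Pearson r = 0.93) and the potassium channel gene KCND3 (0.92). MEIS1 was most like the synaptic vesicle gene SV2B (0.91) and MLPH (0.90), and MEIS2 was close to TMCC1 (0.87). NEUROD6 was most like ACOT13 and RD3L (0.81 each) and the photoreceptor and Müller glia polarity gene CRB1 (0.80). TFAP2A was most like PCBP2 and SENP1 (0.88 each), EBF1 most like ELL (0.86), EBF3 most like ZNF385C and CTBS (0.86 each), LHX9 most like GGA2 (0.85) and TFAP2B most like SLA2 (0.84). Of the 27 genes so chosen, 3 for each tested gene, 0 were past the threshold between lens and control. Over all tested genes 1.84% were called lower and 0.916% higher, so a count of 0 says little about these genes.

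The 39 other pairs of members were examined after the values were seen. PAX6 with EBF1 had the highest r, 0.79 (permutation p = 0.00172, adjusted p = 0.0671 over these pairs), with a Spearman rho of 0.73 (permutation adjusted p = 0.207) and 0.66 without control 64 and lens 55. PAX6 with TFAP2A had 0.71 (permutation adjusted p = 0.135) and PAX6 with MEIS1 0.63 (permutation adjusted p = 0.260). NEUROD6 ran the other way, with an r of -0.63 with PAX6 (permutation adjusted p = 0.260) and of -0.50 without control 64 and lens 55. This r was -0.91 among the 7 control and -0.06 among the 7 lens libraries, a difference between groups that was not tested. None of these pairs passed the threshold after adjustment.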
